A study of Mus musculus with 7 samples.

Results

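A group of 7 genes of the neural lineage was followed in mouse cells that were being reprogrammed, or had been brought to a naive or a primed state: Nes, Sox1, Pax6, Pax3, Zic1, Tubb3 and Ncam1. They were chosen by symbol, and each symbol matched 1 Ensembl gene. They are 7 of the 29267 genes in each of the 7 expression tables, and all 7 had reads in at least 6 of the 7 libraries.

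In the vertebrate embryo the ectoderm becomes neural where signals that drive epidermis are held back, and the first cells of the neural plate are set apart by transcription factors of the SOXB1, PAX and ZIC families. Progenitors of the plate and tube then make the intermediate filament nestin, while neurons that leave the cell cycle take up class III beta tubulin and the adhesion molecule NCAM. Several of these genes are also used elsewhere: SOX2 serves both pluripotent and neural cells, Pax3 marks neural crest and muscle precursors as well as the dorsal neural tube, and nestin is found in many immature or proliferating cells.

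The study asked how 2 culture media lead fibroblasts to pluripotency and in which state the resulting cells are. OG2 mouse embryonic fibroblasts, prepared from mid-gestation embryos without head and internal organs, carry a GFP transgene under the Oct4 promoter. Cells infected with retroviruses for Oct4, Sox2, Klf4 and c-Myc were grown in mES medium, with serum, LIF and vitamin C, or in the serum-free 5C medium, with N2, bFGF, LIF and vitamin C, and were sorted by GFP on day 15. These 4 sorted groups, at passage 0, are mES-Oct4GFP+ with its counterpart mES-Oct4GFP-, and 5C-Oct4GFP+ with its counterpart 5C-Oct4GFP-. The 5C-Oct4GFP+ (naive) cells came from 5C-Oct4GFP+ colonies moved to LIF with the inhibitors CHIR99021 and PD0325901, and the 5C-Oct4GFP+ (primed) cells from such colonies moved to bFGF and activin A; the labels give passage 20 for both lines, and the primed cells had lost GFP. R1 ESCs-primed are cells of the R1 embryonic stem cell line brought to the primed state on fibroblast feeders and then kept with CHIR99021 and IWR-1, also at passage 20. The 6 OG2 groups all carry the GFP transgene and descend from cells that received the 4 retroviruses, so that reads of Sox2 can hold viral transcripts, and no group holds neural cells by its label.

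Each group is 1 library, so no spread between cultures can be estimated and no difference was tested. Expected counts summed to between 6108252 and 11496615 reads a library, and for a gene of median length 1 read came to 0.0950 to 0.181 TPM. TPM divides the reads of a gene by its length and scales every library to the same sum, so that levels of different genes can be set side by side. Intervals are exact 95% intervals, Poisson for a level and Clopper-Pearson for a ratio, and cover counting error only. The labels call the 6 OG2 groups fibroblasts. The summed level of 10 fibroblast markers was 12.9 to 16.8 TPM in the 2 sorted Oct4GFP+ libraries and the naive cells, 91.5 TPM in the primed 5C cells, 263 TPM in R1 ESCs-primed, and 362 and 796 TPM in the Oct4GFP- fractions of 5C and mES medium, and all 10 had reads in every library. The 7 naive-state markers went the other way in the sort, with 1735 and 871 TPM in mES-Oct4GFP+ and 5C-Oct4GFP+ and 69.5 and 75.9 TPM in mES-Oct4GFP- and 5C-Oct4GFP-. The sums of the 2 Oct4GFP- fractions were close, but single markers differed. Klf2 was at 48.81 TPM in mES-Oct4GFP- and 27.21 TPM in 5C-Oct4GFP-. Esrrb was at 1.26 and 15.26 TPM, and Zfp42 at 1.31 and 14.11 TPM. Tbx3 and Tfcp2l1 shared the direction of Klf2, and Prdm14 and Dppa3 that of Esrrb. Pou5f1 itself, which also stands on a retrovirus, was at 1321 TPM in mES-Oct4GFP+ against 3640 TPM in mES-Oct4GFP-, and at 2429 TPM in 5C-Oct4GFP+ against 1534 TPM in 5C-Oct4GFP-.

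The genes lie on 5 chromosomes of GRCm38, as GENCODE annotates them: Nes (ENSMUSG00000004891) at chr3:87971078-87980451 on the + strand, Sox1 (ENSMUSG00000096014) at chr8:12395295-12400126 on the + strand, Tubb3 (ENSMUSG00000062380) at chr8:123411424-123422015 on the + strand, Pax6 (ENSMUSG00000027168) at chr2:105668900-105697364 on the + strand, Pax3 (ENSMUSG00000004872) at chr1:78101267-78197134 on the - strand, and Zic1 (ENSMUSG00000032368) and Ncam1 (ENSMUSG00000039542) at chr9:91358058-91365810 and chr9:49502136-49798925 on the - strand. The libraries do not keep the strand of a transcript, so reads where genes overlap cannot be assigned by strand. Exons of Zic1 overlap those of Zic4 on the other strand, and Zic4 was listed at 0 to 1.08 TPM. Exons of Ncam1 overlap the antisense gene Gm11149, listed at 0 to 0.48 TPM. Sox1 shares exon bases with the microRNA gene Gm25239, which has no level here. Other genes overlap without shared exon bases. On the same strand these are Gm20388 with Tubb3, at 3.68 to 42.06 TPM and highest in mES-Oct4GFP-, and Sox1ot with Sox1, at 0.39 to 1.99 TPM. On the other strand Pax6os1 overlaps Pax6, at 0 to 0.37 TPM.

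Promoter sequences from RefSeq were matched for 5 of the 7 genes: Nes, Sox1, Pax6, Zic1 and Tubb3. The bases just upstream of the annotated start are shown for Nes, Zic1 and Tubb3, since their levels peaked in 3 different libraries, the primed 5C cells, 5C-Oct4GFP- and the naive cells. They are read 5′ to 3′ on the strand of the gene from GRCm38.p6, at chr3:87970843-87971077 on the + strand, chr9:91365811-91366018 on the - strand and chr8:123411303-123411423 on the + strand, and capitals mark each CpG, the dinucleotide that DNA methylation acts on in vertebrates.
Nes: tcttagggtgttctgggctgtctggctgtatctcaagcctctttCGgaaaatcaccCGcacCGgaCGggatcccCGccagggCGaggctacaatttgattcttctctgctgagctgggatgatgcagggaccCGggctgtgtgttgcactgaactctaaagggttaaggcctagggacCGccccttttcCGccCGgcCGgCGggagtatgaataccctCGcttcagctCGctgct
Zic1: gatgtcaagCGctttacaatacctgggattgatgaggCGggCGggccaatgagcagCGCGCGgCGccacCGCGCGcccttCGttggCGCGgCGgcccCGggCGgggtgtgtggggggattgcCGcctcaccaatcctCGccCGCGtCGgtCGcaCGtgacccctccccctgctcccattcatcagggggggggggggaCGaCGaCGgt
Tubb3: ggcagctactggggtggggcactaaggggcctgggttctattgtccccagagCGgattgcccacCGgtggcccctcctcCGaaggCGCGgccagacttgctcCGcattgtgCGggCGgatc

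In the 250 bases before the RefSeq start, the window held 15 CpGs for Nes, 15 at each of the 2 RefSeq starts of Pax6, 21 for Tubb3, 27 for Zic1 and 29 for Sox1, against a median of 6 over 32851 RefSeq promoter windows. Part of these windows lies inside the gene as GENCODE annotates it. Upstream of the annotated start lie 26 bases with 1 CpG for Sox1 and 121 bases with 8 CpGs for Tubb3. For Nes and Zic1 these are 235 bases with 14 CpGs and 208 bases with 26 CpGs. For the second start of Pax6 there are 0. The share of all windows with at least as many was 27.3% for Nes and Pax6, 16.3% for Tubb3, 8.56% for Zic1 and 6.78% for Sox1. These 6 windows were searched on both strands for the octamer ATGCAAAT, which OCT4 binds, the SOX site CATTGTN, the E-box CACCTG and the cAMP response element TGACGTCA. Tubb3 held 2 SOX sites and Pax6 1 cAMP response element, at the start that lies upstream, and no other match was found in these 6 windows. Of the SOX sites of Tubb3, 1 lies in the bases shown above. Of all windows 10.7% hold the SOX site, 1.55% the cAMP response element, 1.60% the octamer and 17.2% the E-box; a match is a description of the letters and not of binding.

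Nes encodes nestin, the filament protein of neural progenitors. In the sorted cells its level in TPM was 7.56 (6.41 to 8.86) in mES-Oct4GFP+, 49.0 (46.4 to 51.7) in mES-Oct4GFP-, 9.26 (8.27 to 10.3) in 5C-Oct4GFP+ and 58.0 (55.1 to 61.1) in 5C-Oct4GFP-. In the cultured cells it was 6.78 (5.84 to 7.83) in 5C-Oct4GFP+ (naive), 112.1 (109 to 116) in 5C-Oct4GFP+ (primed) and 80.2 (76.5 to 83.9) in R1 ESCs-primed. Nes was thus high in both primed lines, intermediate in both Oct4GFP- fractions and low in both Oct4GFP+ fractions and the naive cells, with a gap of 5.29 times (4.68 to 6.0) between the lowest of the first 4 libraries, mES-Oct4GFP-, and the highest of the other 3, 5C-Oct4GFP+. From the highest to the lowest library, primed 5C cells to naive cells, the ratio of levels was 16.5 (14.3 to 19.3). The 2 lowest libraries, mES-Oct4GFP+ and naive, could not be told apart by counting, unlike the other neighbours in this order, at a ratio of 1.12 (0.894 to 1.39). In bulk RNA a lower level can mean fewer cells that express a gene or less RNA in each, and these cannot be told apart for any gene here.

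In the order of all genes with reads, Nes stood above 91.1% of them in the primed 5C cells and above 47.6% in mES-Oct4GFP+. Among 9 intermediate filament genes it made up 13.1% of the summed level in the primed 5C cells, 6.30% in R1 ESCs-primed and 0.927% to 2.28% in the other 5 libraries. Vim, the filament of fibroblasts and other mesenchymal cells, held most of that sum, with 2209 and 2468 TPM in the Oct4GFP- fractions of mES and 5C medium against 335.5 and 333.2 TPM in the Oct4GFP+ fractions. The Oct4GFP- fractions were therefore high in both filaments, while in the primed 5C cells Vim was at 524.4 TPM and Nes at its highest. Nefl, a filament of neurons, was at 159.6 TPM in the primed 5C cells and 147.9 TPM in R1 ESCs-primed, and at 14.39 to 39.75 TPM in the other libraries.

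Sox1 encodes a SOXB1 transcription factor of the neural plate and is the most restricted of that family to neural cells. Its level in TPM in the sorted cells was 0.25 (0.0681 to 0.640) in mES-Oct4GFP+, 2.38 (1.77 to 3.14) in mES-Oct4GFP-, 2.94 (2.33 to 3.66) in 5C-Oct4GFP+ and 15.5 (13.8 to 17.3) in 5C-Oct4GFP-, and in the cultured cells 0.40 (0.183 to 0.759) in 5C-Oct4GFP+ (naive), 0.23 (0.0925 to 0.474) in 5C-Oct4GFP+ (primed) and 2.79 (2.08 to 3.67) in R1 ESCs-primed. The 5C-Oct4GFP- library stood alone, at 5.26 times (4.10 to 6.81) the level of the next library, 5C-Oct4GFP+. Then came 5C-Oct4GFP+, R1 ESCs-primed and mES-Oct4GFP-, whose neighbours were 1.05 times (0.733 to 1.53) and 1.17 times (0.778 to 1.77) apart, and the naive, mES-Oct4GFP+ and primed 5C cells, all under 1 TPM, with 4 to 9 reads. The highest level was 67.2 times (32.2 to 169) the lowest. Sox1 has 1 annotated transcript, so its length was 4832 bases in every library and its order did not depend on the length.

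Of the SOXB1 genes, Sox1 was 2.41% of the summed level in R1 ESCs-primed, 2.18% in 5C-Oct4GFP- and 0.0756% to 0.625% in the other 5 libraries. Sox2, which is also a reprogramming factor, made up most of the sum in every library, with 92.75 of 125.0 TPM in the primed 5C cells and 276.9 to 679.9 TPM in the other 5 OG2 libraries. Sox3 followed another order, with 32.00 and 31.84 TPM in the primed 5C cells and R1 ESCs-primed, 12.47 TPM in 5C-Oct4GFP- and 1.28 to 9.90 TPM elsewhere. The primed 5C cells thus had high Sox3 beside Sox1 under 1 TPM, while R1 ESCs-primed had similar Sox3 beside Sox1 at 2.79 TPM. By counting, Sox1 in the primed 5C cells was not apart from mES-Oct4GFP+, which was at 1.09 times (0.233 to 4.28) its level.

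Zic1 encodes a zinc finger factor of the neural plate border, the dorsal neural tube and the cerebellum. The sorted cells held, in TPM, 0.11 (0.00278 to 0.613) in mES-Oct4GFP+, 5.15 (3.98 to 6.55) in mES-Oct4GFP-, 0.30 (0.110 to 0.653) in 5C-Oct4GFP+ and 17.7 (15.1 to 20.6) in 5C-Oct4GFP-, and the cultured cells 0.08 (0.00969 to 0.289) in 5C-Oct4GFP+ (naive), 0.89 (0.407 to 1.69) in 5C-Oct4GFP+ (primed) and 5.23 (3.84 to 6.95) in R1 ESCs-primed. Zic1 was highest in 5C-Oct4GFP-, at 3.39 times (2.44 to 4.79) the level of R1 ESCs-primed, which did not differ from mES-Oct4GFP- beyond counting error (1.02 times, 0.683 to 1.5). The other 4 libraries had 1 to 9 reads each. Their neighbours were not separated by counting, and 5C-Oct4GFP- was at 221 times (60.3 to 1843) the level of the lowest of them, the naive cells. The length that RSEM gave Zic1 ran from 1680 bases in the primed 5C cells to 5606 bases in the naive cells, over 3 annotated transcripts.

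Zic2 and Zic5, relatives of Zic1 that pluripotent cells also use, did not follow it. Between 5C-Oct4GFP+ and 5C-Oct4GFP- the order was opposite, since Zic2 was at 102.7 against 37.51 TPM and Zic5 at 38.09 against 9.63 TPM, while Zic1 was at 0.30 against 17.7 TPM. Zic2 was highest in R1 ESCs-primed and the primed 5C cells, at 163.3 and 156.7 TPM, and at 24.09 to 33.45 TPM in the naive cells and both mES fractions. Zic4, the neighbour whose exons overlap Zic1, was at 1.08 TPM in 5C-Oct4GFP-, 0.60 TPM in mES-Oct4GFP- and 0 to 0.08 TPM elsewhere.

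Pax6, a paired box factor of the forebrain, eye and ventral neural tube, was low throughout. In the sorted cells its level in TPM was 2.43 (1.21 to 4.33) in mES-Oct4GFP+, 5.20 (3.81 to 6.94) in mES-Oct4GFP-, 0.95 (0.308 to 2.22) in 5C-Oct4GFP+ and 2.36 (1.40 to 3.64) in 5C-Oct4GFP-, and in the cultured cells 1.65 (0.712 to 3.25) in 5C-Oct4GFP+ (naive), 0.11 (0.0133 to 0.397) in 5C-Oct4GFP+ (primed) and 5.48 (3.64 to 7.92) in R1 ESCs-primed. The counts behind these levels were 2 to 46 reads. R1 ESCs-primed and mES-Oct4GFP- were highest and not apart by counting (1.05 times, 0.634 to 1.72). The primed 5C cells were lowest, at 2 reads, and R1 ESCs-primed was at 49.8 times (12.6 to 432) their level. Pax6 has 26 annotated transcripts, and its RSEM length ran from 996 bases in 5C-Oct4GFP+ to 2941 bases in the primed 5C cells, which moves its level per length. In counts scaled by library size alone (CPM), which do not use the length, mES-Oct4GFP- led with 5.21, followed by R1 ESCs-primed with 3.90 and 5C-Oct4GFP- with 2.31, and the primed 5C cells were again last with 0.174.

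Pax3, the paired box factor of the dorsal neural tube, neural crest and muscle precursors, was the lowest of the 7 genes in its highest library. The sorted cells held, in TPM, 0.59 (0.217 to 1.28) in mES-Oct4GFP+, 1.41 (0.894 to 2.12) in mES-Oct4GFP-, 0 (0 to 0.194) in 5C-Oct4GFP+ and 1.02 (0.558 to 1.71) in 5C-Oct4GFP-, and the cultured cells 0.14 (0.0170 to 0.506) in 5C-Oct4GFP+ (naive), 0.21 (0.0572 to 0.538) in 5C-Oct4GFP+ (primed) and 0.28 (0.0516 to 0.731) in R1 ESCs-primed. The levels rest on 23 and 14 reads in mES-Oct4GFP- and 5C-Oct4GFP- and on 0 to 6 reads in the other 5 libraries. With 0 reads in 5C-Oct4GFP+, a level of up to 0.158 TPM, the worth of 3 reads, could have been missed there. No neighbours in the order of levels were apart by counting, but mES-Oct4GFP- was 10.1 times (2.49 to 88.1) the naive level. The 9 Pax genes summed to 2.11 TPM in the primed 5C cells and 13.3 TPM in mES-Oct4GFP-. Pax8, a factor of kidney and thyroid, was above Pax6 in 5C-Oct4GFP+, at 2.54 TPM on 36 reads, and in the primed 5C cells, at 0.58 TPM on 9 reads. In the naive cells Pax8 was at 1.92 TPM (0.523 to 4.92), but on 4 reads against 8 of Pax6. Its RSEM length there was 514 bases against 1097 bases for Pax6, and the intervals of the 2 genes overlapped.

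Markers of other cells that use Pax3 were read beside it. Of 10 myogenic markers, the regulators Myf5, Myod1, Myog and Myf6 were at 0 to 0.30 TPM in every library, and 2 to 6 of the 10 were without a read. Their summed level was 15.5 to 88.9 TPM, highest in mES-Oct4GFP-, where Actc1 and Tnnt1, genes of the contractile apparatus, were at 30.44 and 26.42 TPM. The 6 melanocyte markers summed to 4.97 to 67.7 TPM and were highest in the naive cells and mES-Oct4GFP+. In these Mitf was at 40.34 and 25.48 TPM and Mlana at 16.18 and 18.58 TPM. Tyr and Pmel had reads in every library, while Dct was at 0 to 0.08 TPM and Tyrp1 at 0 to 0.51 TPM. The part of such cells in the Pax3 reads was not tested.

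Tubb3 encodes class III beta tubulin, which is used as a marker of young neurons. The sorted cells had, in TPM, 91.7 (84.2 to 99.7) in mES-Oct4GFP+, 23.7 (20.5 to 27.4) in mES-Oct4GFP-, 43.5 (39.6 to 47.8) in 5C-Oct4GFP+ and 90.1 (83.5 to 97.0) in 5C-Oct4GFP-, and the cultured cells 184.8 (176 to 194) in 5C-Oct4GFP+ (naive), 52.4 (48.3 to 56.8) in 5C-Oct4GFP+ (primed) and 37.2 (32.8 to 42.1) in R1 ESCs-primed. Its order was unlike that of the other 6 genes: the naive cells were highest, at 2.02 times (1.83 to 2.23) the level of mES-Oct4GFP+, and mES-Oct4GFP- was lowest, the naive level being 7.79 times (6.69 to 9.11) as high. The levels in mES-Oct4GFP+ and 5C-Oct4GFP- could not be told apart (1.02 times, 0.909 to 1.14), although these libraries differ in both medium and reporter. Tubb3 has 1 annotated transcript of 1868 bases, so its length was the same in all 7 libraries. It stood above 94.7% of the genes with reads in the naive cells and above 63.3% in mES-Oct4GFP-.

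Tubb3 was a small part of the beta tubulins in every library. It made up 5.73% of the summed level of 8 beta tubulin genes in the naive cells, 3.06% in 5C-Oct4GFP-, 2.84% in mES-Oct4GFP+ and 1.03% to 1.72% in the other 4. The sum itself was 2033 TPM in mES-Oct4GFP- and 2533 to 3640 TPM in the other libraries, and it was mostly Tubb5 and Tubb4b, which dividing cells use. Tubb2b, another isotype of developing neurons, was also highest in the naive cells, at 402.4 TPM, and in mES-Oct4GFP+, at 346.5 TPM, against 166.6 to 306.0 TPM elsewhere. Tubb4a, an isotype of the mature nervous system, did not follow Tubb3: it was at 52.08 TPM in the primed 5C cells and at 0.14 and 0.20 TPM in mES-Oct4GFP+ and the naive cells.

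Ncam1 encodes the neural cell adhesion molecule, which mesenchyme, muscle and other tissues also make. Its level in TPM in the sorted cells was 4.92 (3.79 to 6.25) in mES-Oct4GFP+, 18.5 (16.7 to 20.5) in mES-Oct4GFP-, 6.96 (6.03 to 8.0) in 5C-Oct4GFP+ and 13.9 (12.4 to 15.5) in 5C-Oct4GFP-, and in the cultured cells 6.84 (5.74 to 8.08) in 5C-Oct4GFP+ (naive), 4.61 (3.86 to 5.43) in 5C-Oct4GFP+ (primed) and 11.5 (9.98 to 13.1) in R1 ESCs-primed. Ncam1 had the smallest range of the 7 genes, 4.01 times (3.30 to 4.93) from mES-Oct4GFP- to the primed 5C cells. Both Oct4GFP- fractions and R1 ESCs-primed were above the other 4 libraries, with 1.65 times (1.35 to 2.0) between R1 ESCs-primed and the next, 5C-Oct4GFP+. The RSEM length ran from 4055 to 5250 bases over 6 annotated transcripts. Ncam1 was 32.1% to 76.2% of the summed level of Ncam1, Ncam2, L1cam and the polysialyltransferases St8sia2 and St8sia4. St8sia2, the enzyme that adds polysialic acid to NCAM in development, was above Ncam1 in mES-Oct4GFP+, at 8.66 TPM. In the naive cells St8sia2, at 6.74 TPM (5.66 to 7.96), was level with Ncam1 within counting error, and elsewhere it was lower.

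**Figure D1:**
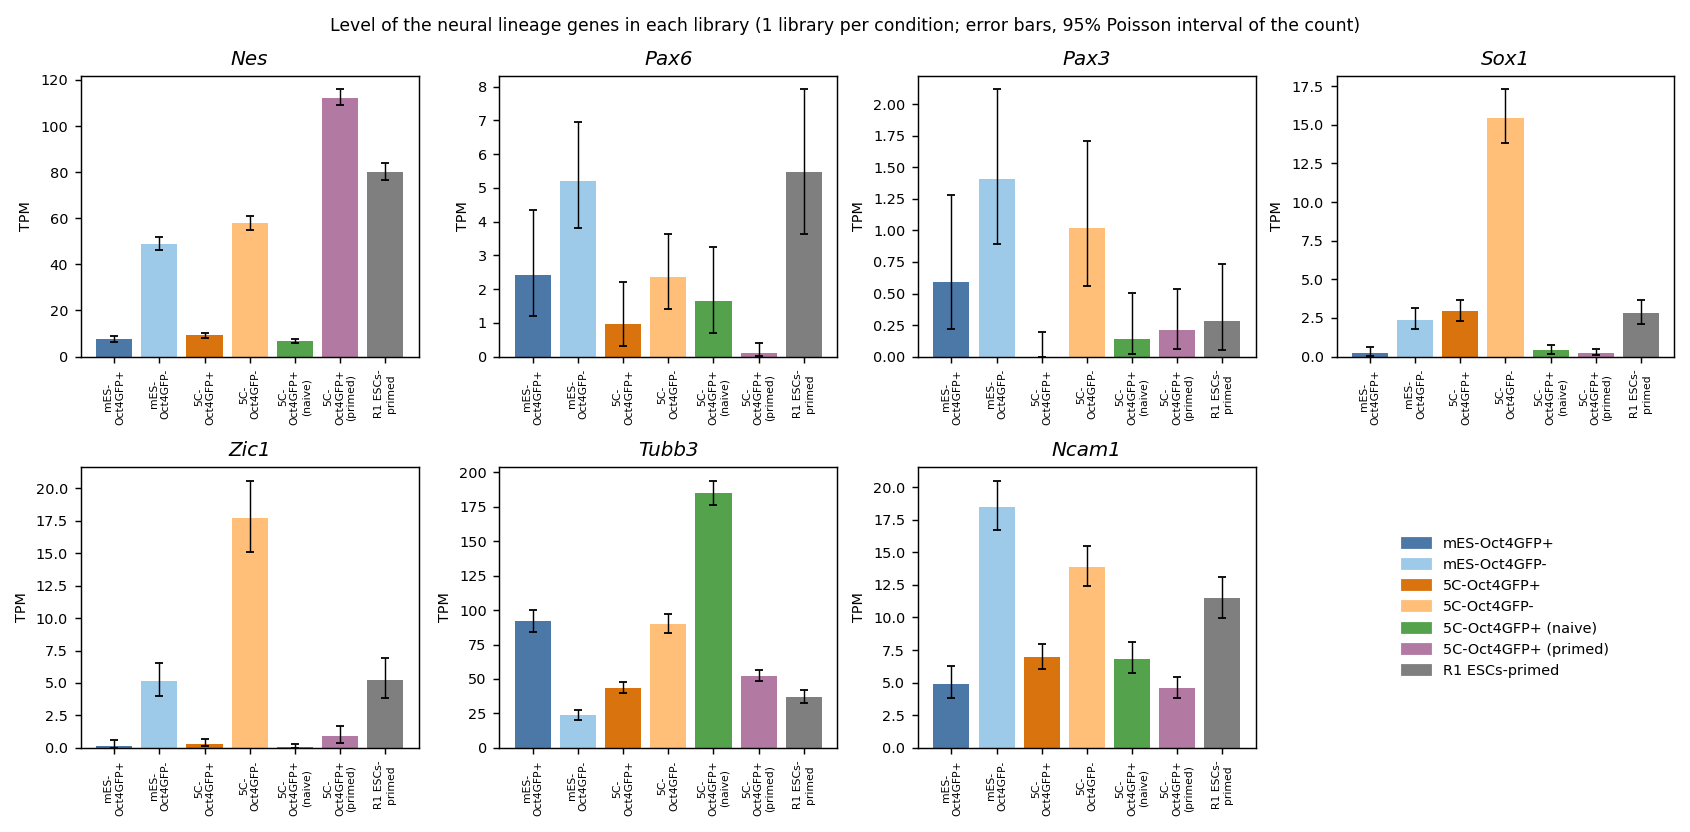
Level of each of the 7 genes in TPM (y axis, linear from 0, 1 panel a gene) in the 7 libraries (x axis); error bars are exact Poisson 95% intervals of the count. Nes peaks in the primed 5C cells at 112.1 TPM, Sox1 and Zic1 in 5C-Oct4GFP- at 15.5 and 17.7 TPM, and Tubb3 in the naive cells at 184.8 TPM, while the intervals of Pax3 and Pax6 are wide.

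**Figure D2:**
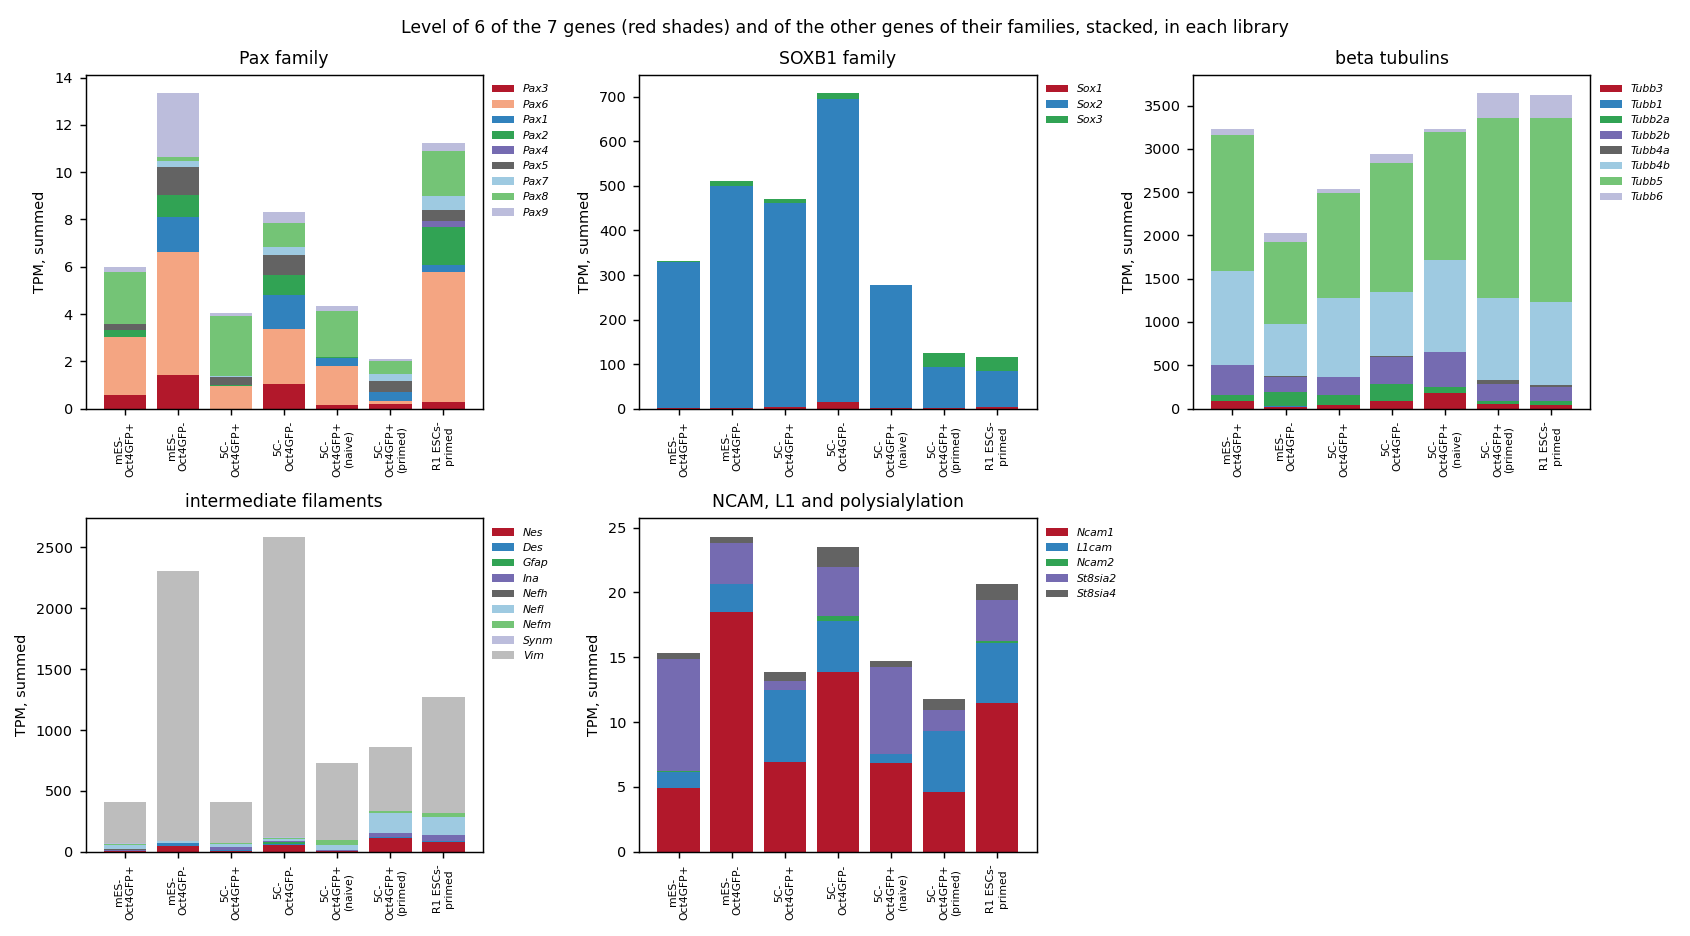
Levels of the genes of 5 families, stacked in TPM (y axis, linear from 0) in each library (x axis), with Nes, Sox1, Pax6, Pax3, Tubb3 and Ncam1 in red shades at the bottom of each bar. Sox1, Tubb3 and Nes are thin layers of their families, with Sox1 at most 2.41% and Tubb3 at most 5.73% of the sum, while Ncam1 is 32.1% to 76.2% of its own.

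Differences between libraries were taken on log2(TPM + 1), a scale that understates changes of low genes. A gene was compared where it had at least 1 TPM in either library and was called where the difference was at least 2-fold on this scale. The same rule over all genes gives the background for each count. The 9 comparisons share libraries, so their values are not independent of each other. With each, 87 other neural genes of 5 lists were counted: neural plate and progenitor factors, plate border and crest, proneural and Delta genes, neuronal structure and synapse, and glia.

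The sort by reporter in mES medium answers how the neural genes lie between cells with and without GFP from the Oct4 promoter. Of the 7 genes, all 7 passed the 1 TPM minimum, 4 were called lower in mES-Oct4GFP+ and 1 higher, where the background was 28.8% lower and 17.9% higher of 16294 genes. Zic1 was at 0.0214 times (0.000533 to 0.123) its level in mES-Oct4GFP-, a difference of -2.47. Nes differed by -2.55 (0.154 times, 0.130 to 0.183), Ncam1 by -1.72 (0.266 times, 0.200 to 0.346) and Sox1 by -1.44 (0.105 times, 0.0276 to 0.286). Tubb3 went the other way, by 1.91, with 3.86 times (3.27 to 4.58) the level of mES-Oct4GFP-. Pax6 and Pax3 were lower by less than the threshold, with differences of -0.85 and -0.60. With FPKM in place of TPM, Sox1 was at -0.94, under the threshold. The median of all compared genes was -0.15.

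Of the 67 other neural genes compared in this sort, 37 were lower in mES-Oct4GFP+ and 11 higher. The plate border and crest list had 9 of 12 lower, with Twist1 at -4.05 and Ets1 at -3.21, and the plate and progenitor list 17 of 26 lower, with Otx2 at -4.86 and Prom1 at -3.49. Twist1 and Ets1 are also mesenchymal genes. Among the genes that were higher in mES-Oct4GFP+ were Gbx2 (5.35), which naive pluripotent cells also express, and Stmn3 (4.81), a regulator of neuronal microtubules. The fibroblast markers, at 796 TPM in mES-Oct4GFP- against 15.6 TPM in mES-Oct4GFP+, moved with Nes, Zic1 and Ncam1, and their part in these differences was not tested.

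The same sort in 5C medium gave 5 of 7 genes lower in 5C-Oct4GFP+ and 0 higher, against a background of 22.6% lower and 8.45% higher of 15675 genes. Zic1 had the largest difference, -3.85, with 0.0169 times (0.00613 to 0.0377) the level. It was followed by Nes at -2.52 (0.160 times, 0.141 to 0.180) and Sox1 at -2.06 (0.190 times, 0.147 to 0.244). Tubb3 and Pax3 were just past the threshold, at -1.03 (0.483 times, 0.428 to 0.545) and -1.01, and Pax3, with 0 reads against 14, had a ratio interval of 0 to 0.218. Ncam1, at -0.90, and Pax6, at -0.78, were not called. The median of all genes was -0.25, and after rescaling by median ratios, or with FPKM in place of TPM, 3 genes were called, Zic1, Nes and Sox1. With the rescaling 37.2% of all called genes were higher in 5C-Oct4GFP+, against 27.2% without it.

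Of 74 other neural genes compared, 46 were lower in 5C-Oct4GFP+ and 8 higher. The plate and progenitor list had 20 of 29 lower, with En1, a midbrain factor, at -4.55 and Fabp7, a radial glia gene, at -4.35. The proneural list had 5 of 6 lower, with Insm1 at -3.23, and the neuronal list 10 of 22, with the RNA-binding protein gene Elavl4 at -3.43 and the synaptic vesicle gene Syt1 at -3.24. Sox10, a crest and glia factor, was at 18.01 TPM in 5C-Oct4GFP- against 0.07 TPM in 5C-Oct4GFP+. Otx2 (2.79) and Foxd3 (3.08), which primed and pluripotent cells also express, were higher in 5C-Oct4GFP+. Fibroblast markers summed to 362 and 12.9 TPM in 5C-Oct4GFP- and 5C-Oct4GFP+, and the 6 Schwann and glia markers to 91.7 and 102 TPM, of which Foxd3 was most in 5C-Oct4GFP+. The part of either in the differences was not tested.

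The 2 sorts share no library. Nes differed by nearly the same amount in them, -2.55 and -2.52. Tubb3 had opposite signs, 1.91 in mES medium and -1.03 in 5C medium. With 1 library a group, the difference between the 2 sorts was not tested.

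The difference between the media was read within each fraction. In Oct4GFP- cells all 7 genes were compared, and 3 were higher in 5C medium and 0 lower, against 9.68% higher and 10.1% lower of 15859 genes. Sox1 differed by 2.28, with 6.50 times (4.81 to 8.94) the level of mES-Oct4GFP-. Tubb3 differed by 1.88 (3.79 times, 3.22 to 4.48) and Zic1 by 1.61 (3.44 times, 2.57 to 4.65). Nes was higher by 0.24 (1.18 times, 1.10 to 1.28), and Ncam1, Pax3 and Pax6 were lower by less than the threshold, at -0.39, -0.25 and -0.88. Sox1, Zic1 and the neuronal tubulin thus passed the threshold in 5C-Oct4GFP-, while nestin was higher by less than the threshold and Pax6 lower.

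Other neural genes were also more often higher than lower here, with 35 of 77 higher and 5 lower. All 6 proneural and Delta genes that were compared were higher, led by Insm1 (3.26), a factor of newborn neurons, and the Notch ligand gene Dll1 (2.08). In the neuronal list 10 of 22 were higher and 0 lower, with Elavl4 (3.71) and the growth cone gene Crmp1 (2.92). Of the plate and progenitor list 12 of 31 were higher and 1 lower, with the hindbrain and midbrain factors En2 (4.88) and Gbx2 (4.57). Gbx2 is also expressed by naive pluripotent cells. Glial Gfap (3.22) and S100b (1.96) were higher too. The border and crest list was split, with Sox10 (3.0) higher and Msx2 (-2.60) lower, 4 each. The summed level of the fibroblast markers was lower in 5C-Oct4GFP-, at 362 against 796 TPM. Col1a1, Col1a2, Col3a1, Col6a1, Pdgfra, Pdgfrb and Postn were lower. Thy1 was higher (53.29 against 8.73 TPM), and Dcn and Lum were higher by less than the threshold. The naive-state markers were split. Esrrb (15.26 against 1.26 TPM), Zfp42 (14.11 against 1.31 TPM), Prdm14 and Dppa3 were higher in 5C-Oct4GFP-. Klf2 (27.21 against 48.81 TPM), Tbx3 and Tfcp2l1 were lower. The part of such cells in the differences was not tested.

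In Oct4GFP+ cells 2 of the 7 genes were called between the media. Of 5 that were compared, Sox1 was higher in 5C medium and Tubb3 lower, against 13.7% higher and 13.5% lower of 15196 genes. Sox1 differed by 1.66, with 80 reads in 5C-Oct4GFP+ and 4 in mES-Oct4GFP+ (11.8 times, 4.42 to 44.2). Tubb3 differed by -1.06 (0.475 times, 0.418 to 0.539). Ncam1 (0.43) and Nes (0.26) were a little higher, and Pax6 (-0.81) lower, without passing the threshold, and Pax3 and Zic1 were under 1 TPM in both libraries. Of 56 other neural genes, 27 were higher and 8 lower. The largest differences were those of Otx2 (7.08) and Pou3f1 (4.48), which are also markers of the primed epiblast, and 12 of 20 neuronal genes were higher, among them Crmp1 (4.04).

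**Figure D3:**
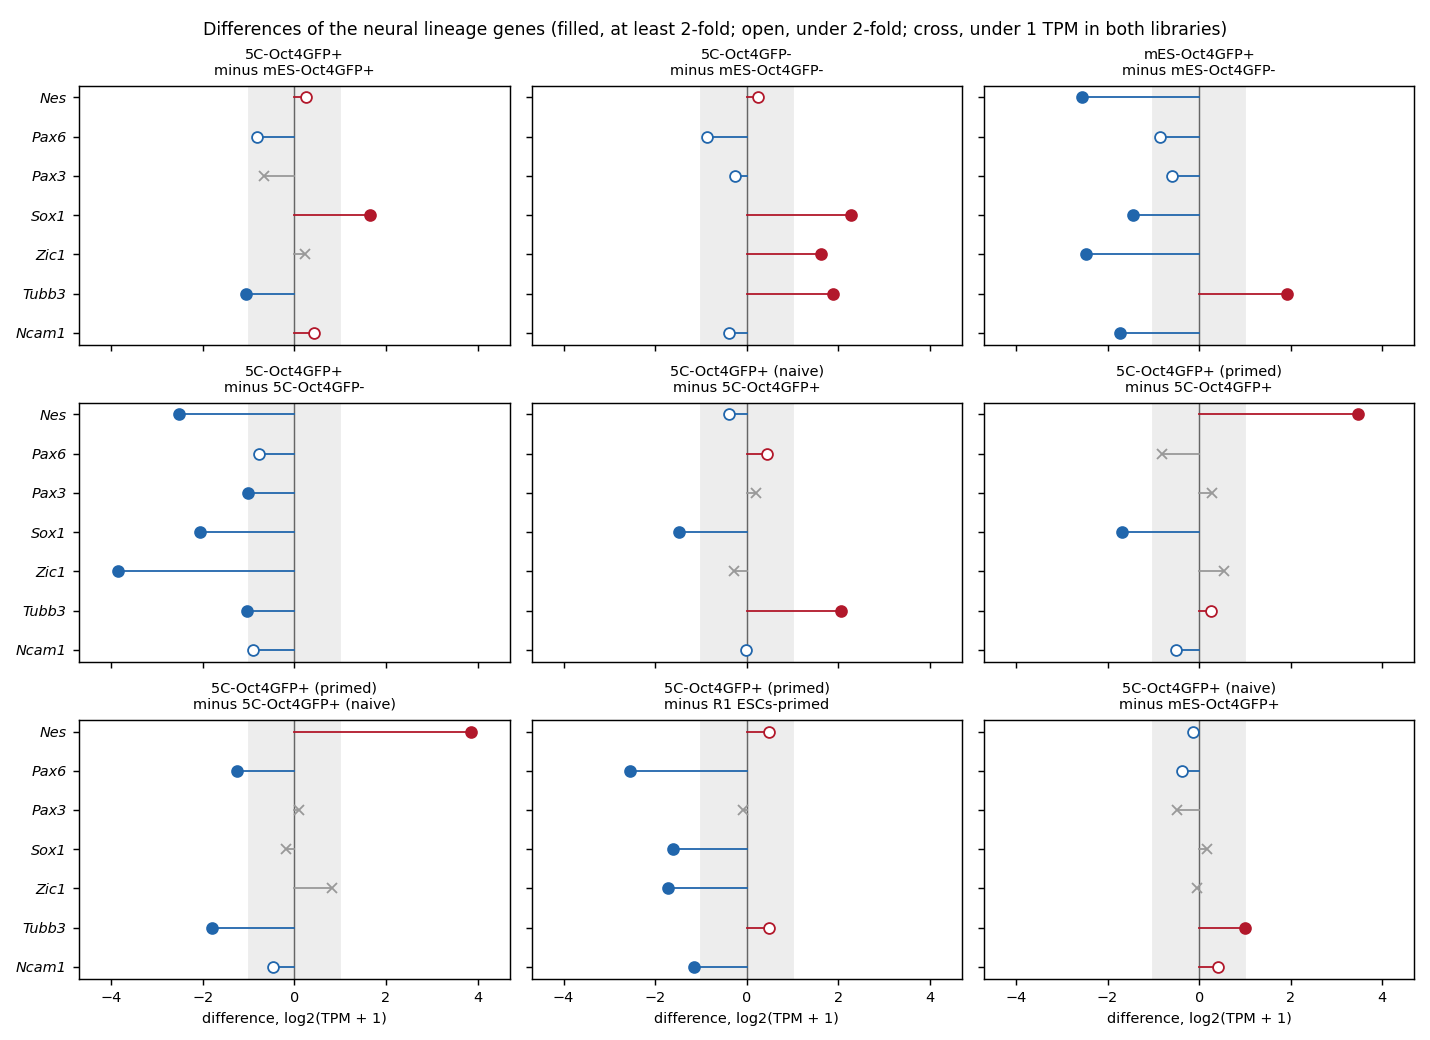
Difference of each of the 7 genes (y axis) in the 9 comparisons (panels), on log2(TPM + 1) (x axis); filled points are at least 2-fold, open points less, crosses under 1 TPM in both libraries, and the grey band marks differences under 2-fold. Nes is at -2.55 and -2.52 in the 2 reporter sorts, and Tubb3 is at 1.91 in mES medium and -1.03 in 5C medium.

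Culture of 5C-Oct4GFP+ cells in naive medium was compared with the sorted cells of the same origin. The cultured cells were at passage 20 and the sorted cells at passage 0, so medium, passage and library cannot be told apart here. Of 5 genes compared, Tubb3 was higher and Sox1 lower, against 10.00% higher and 17.5% lower of 14863 genes. Tubb3 differed by 2.06 (4.25 times, 3.82 to 4.73) and Sox1 by -1.49 (0.136 times, 0.0600 to 0.271). Nes (-0.40), Pax6 (0.44) and Ncam1 (-0.02) were not called, and the median of all genes was -0.10. The other neural genes were mostly lower, 31 of 57, with 6 higher. Neuronal genes were lower in 13 of 20 cases, among them Dpysl3 (-2.86), and 2 were higher, the neurofilament gene Nefm (3.03) and Stmn3 (2.24). Tubb3 thus shared its direction with Nefm and Stmn3 and not with most of the neuronal list.

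Culture in primed medium was compared with the same sorted cells, again at passage 20 against passage 0, so medium and passage cannot be told apart. Of 4 genes compared, Nes was higher and Sox1 lower than in 5C-Oct4GFP+, against 13.7% higher and 16.1% lower of 15067 genes. Nes differed by 3.46, with 12.1 times (10.8 to 13.6) the level, and Sox1 by -1.68 (0.0782 times, 0.0305 to 0.169). Tubb3 (0.26) and Ncam1 (-0.50) were not called, and Pax6, Pax3 and Zic1 were under 1 TPM in both libraries. Of 61 other neural genes, 21 were higher and 11 lower. Among the higher were Irx3 (2.87) and Six3 (2.81), factors of the neural plate and forebrain, Tubb4a (3.30) and the synaptic gene Snap25 (2.69), and among the lower Mapt (-4.80), Gbx2 (-4.60), Neurod1 (-2.40) and Sox2 (-2.30). Of the fibroblast markers compared, 9 of 10 were higher and 0 lower, with a sum of 91.5 against 12.9 TPM, and of the mesoderm and endoderm markers 7 of 7 were higher and 0 lower, with a sum of 430 against 9.98 TPM. Their part in the Nes difference was not tested.

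Between the 2 cultures, primed against naive, 1 of 4 genes was higher and 2 lower, against 22.2% higher and 16.7% lower of 15249 genes. Nes differed by 3.86, with 16.5 times (14.3 to 19.3) the level in the primed cells. Tubb3 differed by -1.80 (0.284 times, 0.258 to 0.312) and Pax6 by -1.26, with 2 reads in the primed and 8 in the naive cells (0.0667 times, 0.00690 to 0.334). The call of Pax6 depends on the unit. Its RSEM length, 2941 bases in the primed and 1097 bases in the naive cells, enters TPM and FPKM but not CPM. In FPKM (0.06 and 0.95) and in CPM (0.174 and 0.972) the difference of Pax6 was under the threshold. Ncam1 was at -0.48, and Sox1, Zic1 and Pax3 were under 1 TPM in both. Other neural genes were mostly higher in the primed cells, 37 of 62, with 11 lower: 17 of 22 plate and progenitor genes, led by Otx2 (6.65) and Pou3f1 (4.77), and 12 of 19 neuronal genes, led by Tubb4a (5.47) and Snap25 (3.75). The primed cells also had the higher sum of mesoderm and endoderm markers, 430 TPM for 9 genes against 17.9 TPM. Their fibroblast markers summed to 91.5 against 16.8 TPM, with Lum alone lower (2.70 against 6.98 TPM). The part of such cells in the Nes difference was not tested. T, a mesoderm gene, was at 155.3 TPM in the primed cells.

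The primed 5C cells and R1 ESCs-primed are the most alike pair of libraries, with a correlation of 0.9873 over all genes on log2(TPM + 1), and 2.30% of 14600 genes were called higher and 5.09% lower in the 5C cells. Of the 7 neural genes, 6 were compared, 4 were lower and 0 higher. Pax6 differed by -2.55, with 2 reads against 28 (0.0201 times, 0.00232 to 0.0796). Zic1 differed by -1.72, with 9 reads against 47 (0.170 times, 0.0733 to 0.351), and Sox1 by -1.62, with 7 reads against 51 (0.0824 times, 0.0316 to 0.182). Ncam1 differed by -1.15 (0.402 times, 0.322 to 0.50). Nes and Tubb3 were each higher by 0.48, at 1.40 times (1.32 to 1.48) and 1.41 times (1.21 to 1.64). Pax6, Zic1, Sox1 and Ncam1 were thus lower in the converted cells, and nestin and the tubulin were not.

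Of 68 other neural genes in this pair, 14 were lower and 4 higher. En2 (-2.83) and Gbx2 (-2.15), factors of the midbrain and hindbrain, and the Notch ligand genes Dll3 (-1.71) and Dll1 (-1.24) were among the lower. Gbx2 is also a gene of naive pluripotent cells. Rax, a factor of the eye field, was at 6.10 TPM in the primed 5C cells and at 0 in R1 ESCs-primed. The 2 lines differ in origin, in the feeders used to induce R1 ESCs-primed, in medium (bFGF and activin A against CHIR99021 and IWR-1) and in the retroviruses and GFP transgene, which the R1 label does not give. The fibroblast markers summed to 91.5 TPM in the primed 5C cells and 263 TPM in R1 ESCs-primed, and their part in the difference of Ncam1 was not tested. Line, medium, transgenes and library cannot be told apart here.

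The naive 5C cells and mES-Oct4GFP+ were also close, at a correlation of 0.9860. They differ in medium and in passage, 20 against 0, and these cannot be told apart. Of 4 genes compared, Tubb3 was higher in the naive cells and 0 were lower, where the background was 2.49% higher and 6.27% lower of 14477 genes. Tubb3 differed by 1.00, at the threshold, with 2.02 times (1.83 to 2.23) the level. Nes (-0.14), Pax6 (-0.37) and Ncam1 (0.41) were not called, and Pax3, Sox1 and Zic1 were under 1 TPM in both libraries. The median of all genes was -0.16, and with median-ratio rescaling Tubb3 differed by 1.17 and 42.5% of all called genes were higher, against 28.4% without it. Of 43 other neural genes, 2 were higher, Crmp1 (1.67) and Nefm (1.51), and 6 were lower.

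**Figure D4:**
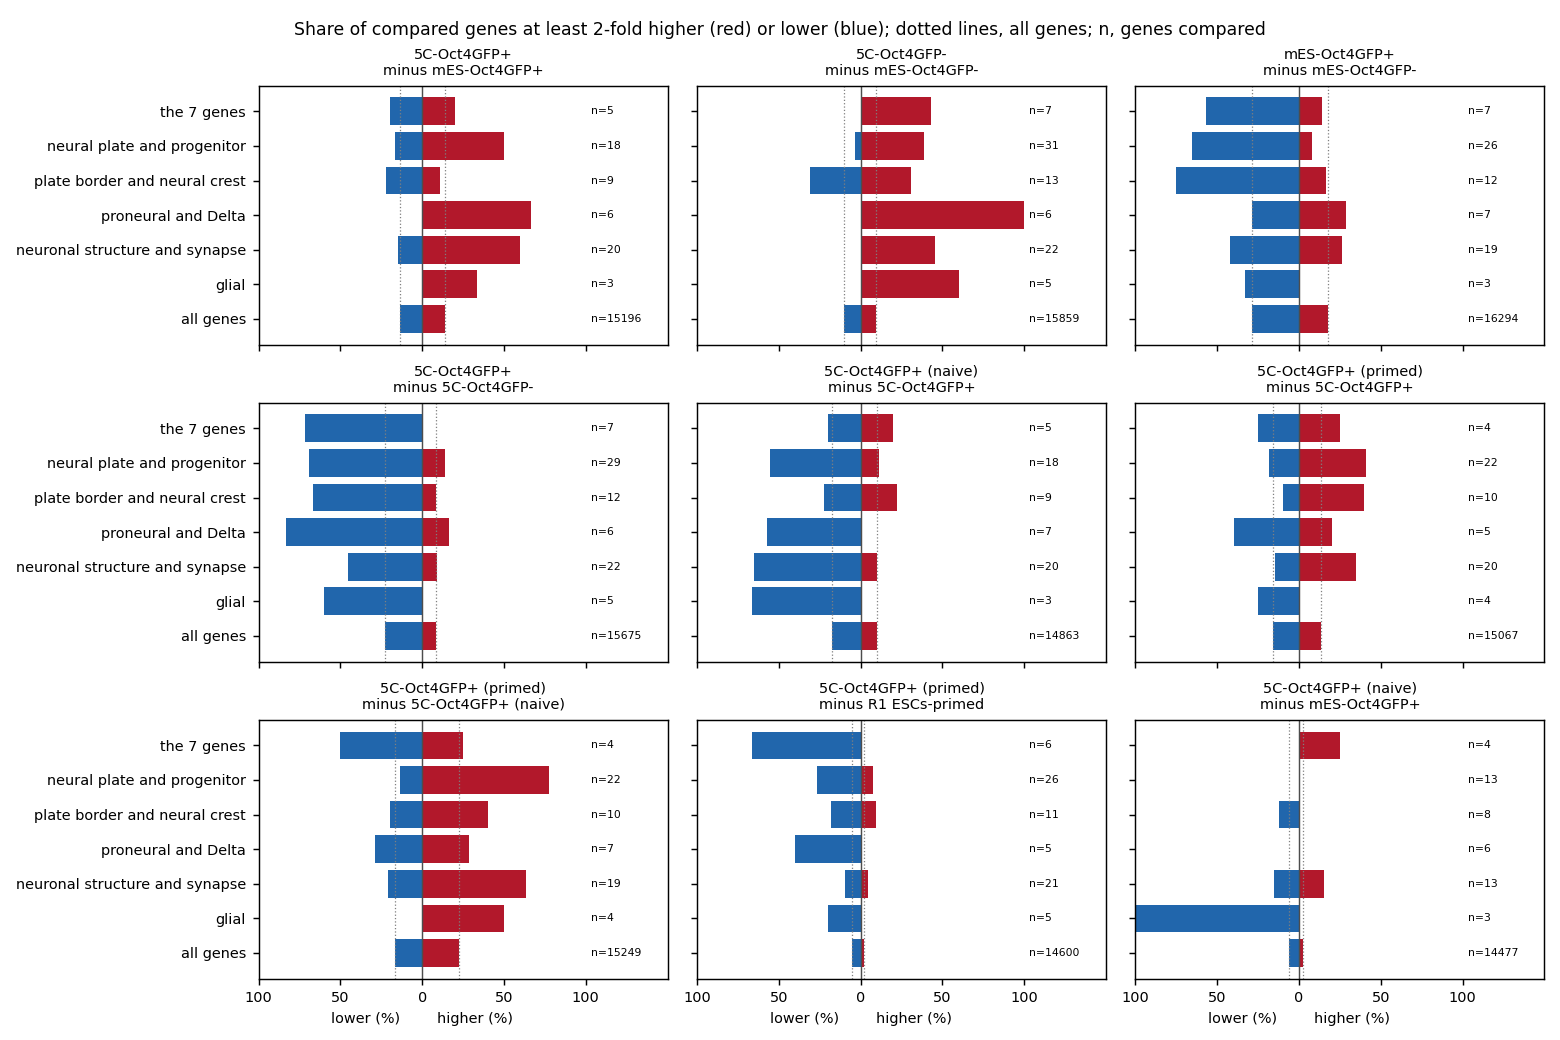
Share of compared genes that were at least 2-fold higher (red, to the right) or lower (blue, to the left) for the 7 genes, the 5 lists of other neural genes and all genes, in percent (x axis), in the 9 comparisons (panels); dotted lines repeat the share of all genes, and n is the number compared. In 5C-Oct4GFP- against mES-Oct4GFP- all 6 proneural and Delta genes are higher, and in 5C-Oct4GFP+ against 5C-Oct4GFP- the 5 lists hold 46 lower and 8 higher genes.

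The 7 genes did not share 1 order over the 7 libraries. As a description over 7 libraries, which share media, origin and factors, Pearson r of log2(TPM + 1) was 0.84 for Sox1 and Zic1, 0.82 for Zic1 and Ncam1 and 0.75 for Pax6 and Ncam1. Tubb3 was negative with all 6 others, from -0.54 with Nes to -0.19 with Sox1. Nes was at 0.08 with Pax6 and 0.68 with Zic1.

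The genes most like each of the 7 were taken from the genes with at least 5 TPM in some library, by Pearson r of log2(TPM + 1) over the 7 libraries. For Nes they were Plekho1, Zfp334 and Sema6d, with r of 0.995, 0.995 and 0.994, and Sema6d, a semaphorin, ran from 0.03 TPM in 5C-Oct4GFP+ to 17.8 TPM in the primed 5C cells. For Sox1 the nearest gene was Sst, the gene of the neuropeptide somatostatin, at 0.989, with 9.36 TPM in 5C-Oct4GFP- and 0 to 1.33 TPM in the other libraries. Zic1 was nearest to Fdxacb1, Il1rap and Ifngr2, at 0.994, 0.988 and 0.986, and Tubb3 to Rdh13, Ptpn6 and Zfp607a, at 0.964, 0.963 and 0.955. The nearest to Ncam1 were Mgst2 (0.986), Por (0.959) and Ldlrad4 (0.959), and to Pax3, which rests on few reads, Zfp672 (0.994), Scube1 (0.990) and Ccdc88c (0.987). Pax6 had no gene above 0.920, the value for Gm19918, followed by Cdkn2a (0.904) and Sp3os (0.903). With 7 points and this many genes such values are a description only.

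**Figure D5:**
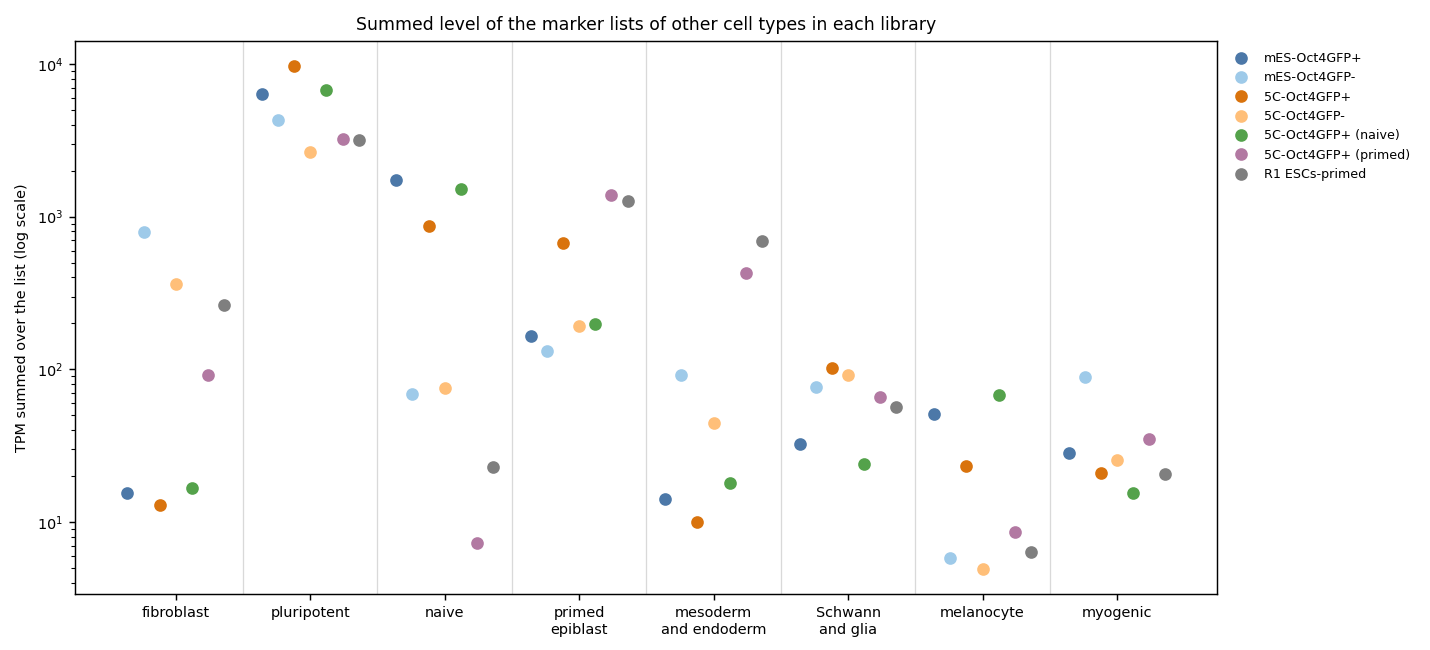
Summed level of 8 lists of markers of other cell types (x axis) in TPM on a log scale (y axis), 1 point for each library. The fibroblast sum is 12.9 to 16.8 TPM in mES-Oct4GFP+, 5C-Oct4GFP+ and the naive cells and 91.5 to 796 TPM in the other 4, the libraries in which Nes is at least 49.0 TPM.

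The levels of Nes and the fibroblast markers split the libraries in the same way, with the same 4 libraries high and 3 low, but their order within the high group was opposite throughout. Nes was lowest of the 4 in mES-Oct4GFP-, at 49.0 TPM, where the fibroblast sum was highest, at 796 TPM, and highest in the primed 5C cells, at 112.1 TPM, where that sum was 91.5 TPM. Between these, Nes was at 80.2 TPM in R1 ESCs-primed and 58.0 TPM in 5C-Oct4GFP-, with sums of 263 and 362 TPM. The 6 primed epiblast markers summed to 1382 and 1271 TPM in the primed 5C cells and R1 ESCs-primed and to 671 TPM in 5C-Oct4GFP+, where Nes was at 9.26 TPM. The part of either cell type in the Nes level was not tested.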

How the data were processed

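RNA of 7 mouse cell populations was extracted with Trizol, made into unstranded TruSeq libraries and sequenced on a MiSeq, 1 library for each group. Per the submitters' processing notes the reads were aligned with Bowtie to mm10 and quantified with RSEM; versions are not given in the sources used here. The authors deposited 1 gene table a library, with estimated (expected) counts that need not be whole, TPM, FPKM and gene lengths in bases averaged over isoforms. TPM, the unit of the study, was used for all main values, and the deposited FPKM and the expected counts of the authors for alternatives and intervals. Groups came from the labels. Symbols and positions came from GENCODE M21, which named 28756 of 29267 genes.

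Expected counts (6108252 to 11496615 a library) were rounded to whole numbers for intervals, since 19.9% to 21.8% of the 29267 values of a table, genes at 0 included, were not exactly whole numbers. Each TPM has an exact Poisson 95% interval and each ratio an exact Clopper-Pearson 95% interval, which cover counting error only. A floor of 3 counts a library was used where a gene had no read. Differences were taken on log2(TPM + 1), with a minimum of 1 TPM in either library and a 2-fold threshold. With 1 library for each group there is no residual error and no p-value. Correlations are Pearson r over the 7 libraries. The alternatives were a pseudocount of 0.1, no minimum, a minimum of 5 TPM, FPKM, TPM rescaled by median ratios and, chosen after seeing the data, expected counts scaled by library size alone (CPM).

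Named were all 7 genes, their families, genes that overlap them, marker lists, the 2 genes with the largest called difference in each direction for each neural list and comparison, and the 3 genes most like each of the 7. From these, the text gives examples. Some genes of the lists are not reported here. The 7 genes and the lists were chosen with earlier results of these data known. Promoter sequences are RefSeq's for GRCm38.p6, and those shown were ended at the annotated start of the gene. CpGs and sites were counted in the 250 bases before the RefSeq start. The scripts were tested on simulated data. Tables were read with pandas 2.3.3 and numpy 2.4.6 in Python 3.11.15, intervals came from scipy 1.17.1, and plots from matplotlib 3.10.9.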

Additional observations from a re-analysis of the deposited data

Results flagged for a closer look

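Tubb3 differed in opposite directions between the 2 media when the reporter fractions were compared, by 1.91 on log2(TPM + 1) for mES-Oct4GFP+ against mES-Oct4GFP- and by -1.03 for 5C-Oct4GFP+ against 5C-Oct4GFP-. The same 4 libraries read by medium gave -1.06 for Oct4GFP+ cells and 1.88 for Oct4GFP- cells. Ncam1 also had opposite signs by medium, 0.43 in Oct4GFP+ cells and -0.39 in Oct4GFP- cells, both under the 2-fold threshold. With 1 library a group these differences between groups were not tested.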

How the results depend on the processing

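No difference of the 7 genes that was called changed its sign under any of the alternatives run. In 5C-Oct4GFP+ against 5C-Oct4GFP- the count of the 7 genes called went from 5 to 3 with FPKM and to 3 with TPM rescaled by median ratios, through the loss of Pax3 (-0.60 and -0.93) and Tubb3 (-0.92 and -0.81). A minimum of 5 TPM left 1 of the 7 called, in place of 2, in 5C-Oct4GFP+ against mES-Oct4GFP+, in naive cells against 5C-Oct4GFP+ and in primed cells against 5C-Oct4GFP+, since Sox1 was then not compared. The 6 alternatives otherwise kept the counts of the 7 genes within 1.5 times. The sizes of single differences moved more: of 63, 23 moved beyond their counting interval with a pseudocount of 0.1, 11 with FPKM, 7 with CPM and 4 with the rescaling. Of the other neural genes, 10 in place of 18 were called with FPKM between the primed 5C cells and R1 ESCs-primed, and 4 with FPKM and 5 with CPM, in place of 8, between the naive cells and mES-Oct4GFP+; the cause was not tested. Sox1 in mES-Oct4GFP+ against mES-Oct4GFP- was at -0.94 with FPKM. Pax6 in the primed against the naive cells was under the threshold with FPKM and with CPM. Depth limits Pax3, Pax6 in the primed 5C cells, Zic1 in the 4 libraries with 1 to 9 reads, and Sox1 in the 3 with 4 to 9 reads. No library could be left out because each group has 1. No paired analysis was possible because each group is 1 library and the labels give no replicate numbers.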
